A study of Homo sapiens with 5 samples.

Results

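DNase I hypersensitive sites around 7 genes of the NF-kB pathway were examined in 5 human cell lines that stem from malignancies of the B lineage. The enzyme DNase I digests DNA mainly where it is not packed by nucleosomes, and the fragments it frees are sequenced to locate accessible sites. The sites are the peaks in the authors' list for each line that overlap a fixed window around REL, NFKB1, NFKB2, RELB, NFKBIA, BCL3 or TRAF1, in hg18 coordinates. The windows held 139 of the 109692 peaks in the 5 lists. Of these, 41 were from L1236, 30 from L428, 39 from L591, 26 from Reh and 3 from Namalwa. L1236, L428 and L591 are Hodgkin lymphoma lines. The non-Hodgkin group of the labels is formed by Reh, a line of pro-B acute leukaemia, and by Namalwa, a Burkitt lymphoma line. All lines were unmodified and at passage 7, and the DNase I dose was 6 U/ml for nuclei of L1236, L428 and Reh and 12 U/ml for those of L591 and Namalwa. Each line gave 1 library and 1 list, so lines are the replicates of a group and nothing measures the error within a line. The lists hold no expression values, so the lines could not be checked against marker genes.

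NF-kB is a family of transcription factors that act as dimers and switch on genes of survival, inflammation and B cell activation. In resting cells an inhibitor of the IkB family holds the dimers in the cytoplasm until a signal leads to its breakdown. Constitutive NF-kB activity is a known trait of the malignant cells of Hodgkin lymphoma. REL and RELB carry a transactivation domain, while NFKB1 and NFKB2 encode precursors that are processed to the DNA-binding partners. NFKBIA encodes the inhibitor IkB-alpha, BCL3 a nuclear IkB protein that acts on dimers bound to DNA, and TRAF1 a signalling adaptor of TNF receptors. NFKBIA and TRAF1 are themselves known targets of NF-kB.

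Promoter sequences of these genes are shown because several members of the family are known to be regulated by NF-kB itself. They come from RefSeq in build GRCh38.p14, so their coordinates cannot be set against those of the hg18 peaks, and whether a peak covers one of them was not determined. The table matched 6 of the 7 genes, with 11 promoters reaching from 250 bases before to 50 bases after a gene start. In the lines that follow, capitals mark matches on either strand to the NF-kB-like letters GGNNNTTCC, a form picked after these sequences had been seen. The NFKBIA promoter (GRCh38.p14, chr14:35404700-35404999, minus strand) and 1 of 3 NFKB2 promoters (GRCh38.p14, chr10:102394328-102394627, plus strand) are given whole, and for REL, NFKB1 and TRAF1 a match with 10 bases on either side.
NFKBIA promoter: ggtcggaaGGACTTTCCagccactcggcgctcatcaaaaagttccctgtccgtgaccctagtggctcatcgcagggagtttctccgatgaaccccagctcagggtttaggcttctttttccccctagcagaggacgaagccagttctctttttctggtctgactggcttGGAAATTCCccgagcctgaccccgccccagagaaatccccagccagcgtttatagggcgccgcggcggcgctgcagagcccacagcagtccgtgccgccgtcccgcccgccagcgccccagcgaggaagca
NFKB2 promoter: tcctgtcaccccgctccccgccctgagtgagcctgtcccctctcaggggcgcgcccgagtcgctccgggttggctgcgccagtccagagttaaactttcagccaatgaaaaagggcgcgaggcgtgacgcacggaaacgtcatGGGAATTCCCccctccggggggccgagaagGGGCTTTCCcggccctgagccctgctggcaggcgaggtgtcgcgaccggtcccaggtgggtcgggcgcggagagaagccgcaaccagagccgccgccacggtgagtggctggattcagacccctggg
REL match (chromosome 2, plus strand): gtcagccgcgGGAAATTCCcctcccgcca
NFKB1 match (chromosome 4, plus strand): gacgtcagtgGGAATTTCCagccaggaag
TRAF1 match (chromosome 9, minus strand): gatttcatcaGGGCTTTCCtgctccttct
A match was found in 8 of the 11 promoters, against 20.1% of 35116 promoters of the same length. Since this form was picked after the sequences had been seen, the comparison cannot show an enrichment. In the NFKB2 promoter shown, 2 of its 3 matches overlap each other. The REL and NFKB1 matches shown lie before the gene start. The TRAF1 match shown is from 1 of its 3 promoters and lies after the start, at bases 10 to 18. Matches in BCL3 and in another promoter each of NFKB2 and TRAF1 are not shown. A looser kB form, GGG and CC with 5 free bases between them, was in all 11 promoters, against 58.7% of all promoters, and the AP-1 letters TGANTCA were in 0 of the 11, against 7.71%. Promoters of the same gene are not independent, and a match is not a binding site. Base composition was not matched between these promoters and all promoters, so the looser form does not show an enrichment either. The 0 for AP-1 in 11 promoters does not show a lack.

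The Hodgkin lists held more peaks in these windows, relative to their length, than the non-Hodgkin lists. Per 1000 peaks of the list on chromosomes 1 to 22 and X, the windows took 1.60 peaks in L1236, 1.29 in L428 and 1.47 in L591, against 0.931 in Reh and 0.521 in Namalwa. The mean was 1.45 ± 0.156 (SD, n = 3) in the Hodgkin lines and 0.726 in the non-Hodgkin lines. Of the 41 L1236 peaks, 16 lay in the NFKB1 window, where L428 had 0, so the L1236 value rests in large part on that window. The groups did not overlap, but the counts behind the values are small. How often other sets of 7 stretches of the genome keep the groups apart was not determined. Exact 95% Clopper-Pearson intervals, which cover counting error only, ran from 0.869 to 1.84 in L428, from 0.608 to 1.36 in Reh and from 0.107 to 1.52 in Namalwa, so the intervals of these lines overlap. Within the lines digested at 6 U/ml, L1236 and L428 averaged 1.44 per 1000 against 0.931 in Reh, and at 12 U/ml L591 had 1.47 against 0.521 in Namalwa. The Namalwa list is short, with 5760 peaks on these chromosomes against 23288 to 27925 in the other lists, and 1 Namalwa peak is already 0.174 per 1000. Of the Namalwa list, 98.4% overlapped a Reh peak, against 65.8% to 83% that overlapped a peak of any 1 Hodgkin line, while 18.6% of the longer Reh list overlapped a Namalwa peak. The comparisons of groups treat these 2 lists as independent, which was not tested. A percentile within the short Namalwa list is not the same rank as in the longer lists. Without Namalwa the difference over the 7 windows was 0.520 per 1000, and without Reh it was 0.930.

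The excess was not shared by all windows. Hodgkin values were all above both non-Hodgkin values in 3 of the 7 windows, REL, NFKBIA and TRAF1. They were all below both in 2 windows, NFKB2 and RELB, and the groups overlapped in NFKB1 and BCL3. The Namalwa value in NFKB2 and in RELB is 1 peak of a short list, in a region where L1236 and L591 also had a peak. In lists of equal length NFKBIA and TRAF1 still separated the groups, while REL, NFKB2 and RELB did not. L1236 kept 1 peak in NFKBIA and 1 in TRAF1 there, against 0 in Reh and Namalwa, so each separation would be lost with that peak. The shares of stretches that follow are for the full lists, and none was computed for lists of equal length. Among all stretches of the genome cut to the length of the window and holding a peak, the Hodgkin lines stood above both other lines in 15.4% at the length of REL, 14.9% at that of NFKBIA and 14.2% at that of TRAF1. They stood below in 6.05% at the length of NFKB2 and 6.95% at that of RELB. In 5 lines cut 3 against 2, an exact permutation test has 10 splits and cannot give a p under 0.1, so none of the 7 comparisons could pass 0.05.

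**Figure D1:**
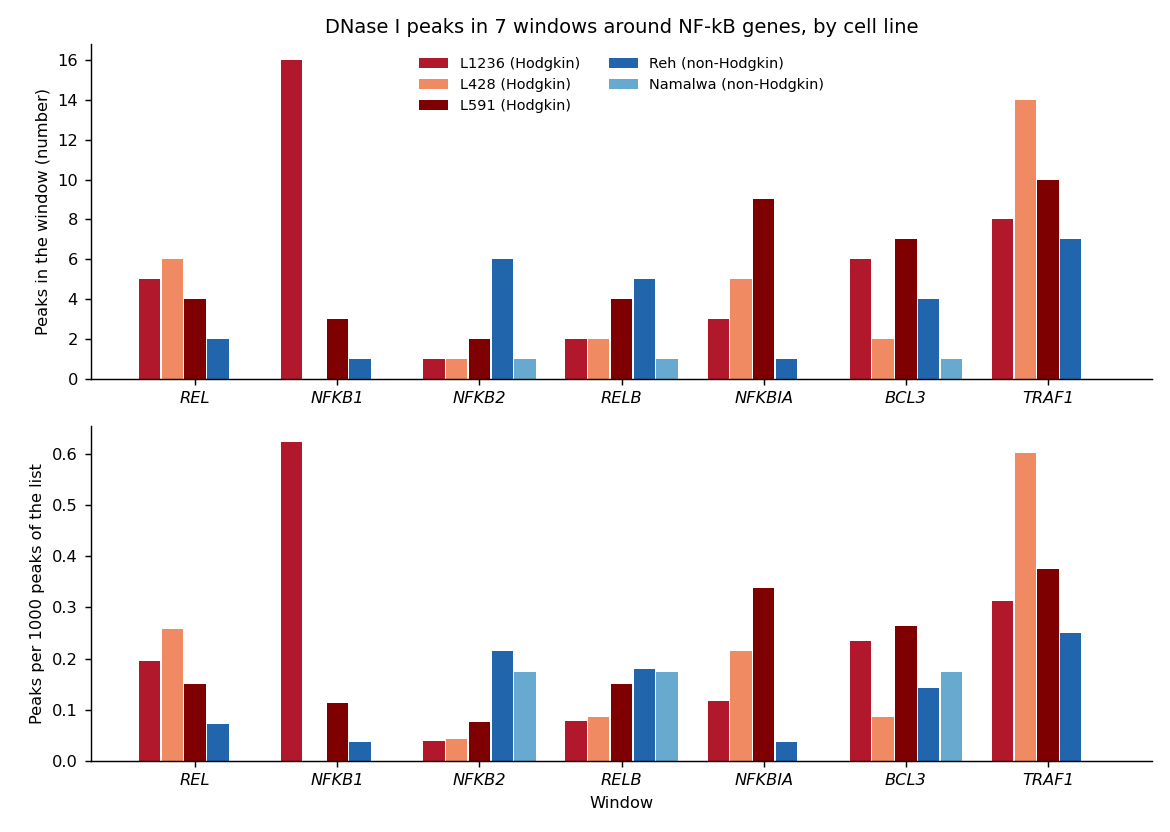
Peaks in each window as numbers (upper) and per 1000 peaks of the line's list (lower), with 1 bar for each line, red for Hodgkin and blue for non-Hodgkin lines. L1236 leads in NFKB1 with 16 peaks, L428 in TRAF1 with 14 and L591 in NFKBIA with 9, while Reh leads in NFKB2 with 6.

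Joining the peaks that overlapped between lines gave 69 merged regions across the windows. Hodgkin-only regions, with a peak in L1236, L428 and L591 and in neither Reh nor Namalwa, numbered 7 (10.1% of 69), where the class made up 4.33% of the 59212 merged regions of the genome. They lay in TRAF1 (3), NFKBIA (3) and REL (1). With each list held to its 5760 highest-scoring peaks, the length of the Namalwa list, 1 Hodgkin-only region was left and 1 region was shared by Reh and Namalwa alone. With the full lists no region was shared by Reh and Namalwa alone, a class of 1.04% of merged regions in the genome. Regions found in each of the 5 lines numbered 2 (2.90%, against 5.12% in the genome) and lay in NFKB2 and BCL3. At 45 regions (65.2%, against 55.9%) at least 1 Hodgkin line and neither non-Hodgkin line had a peak. Of these 45 regions, 17 lay in the NFKB1 window, 14 of them with a peak in L1236 alone. A peak in 1 line alone was found at 35 regions (50.7%, against 62.9%), of which 18 were from L1236 (26.1% of the 69 regions, against 19.8% in the genome), 4 from L428 (5.80%, against 9.02%) and 8 from L591 (11.6%, against 12.5%), while 5 were from Reh (7.25%, against 21.5%). The L591 share was thus near that of the genome, and the Reh share was lower. The 18 L1236 regions included the 14 of NFKB1, so the L1236 share rests mainly on that window. A weaker site in every cell and a site open in fewer cells cannot be told apart in these lists.

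**Figure D2:**
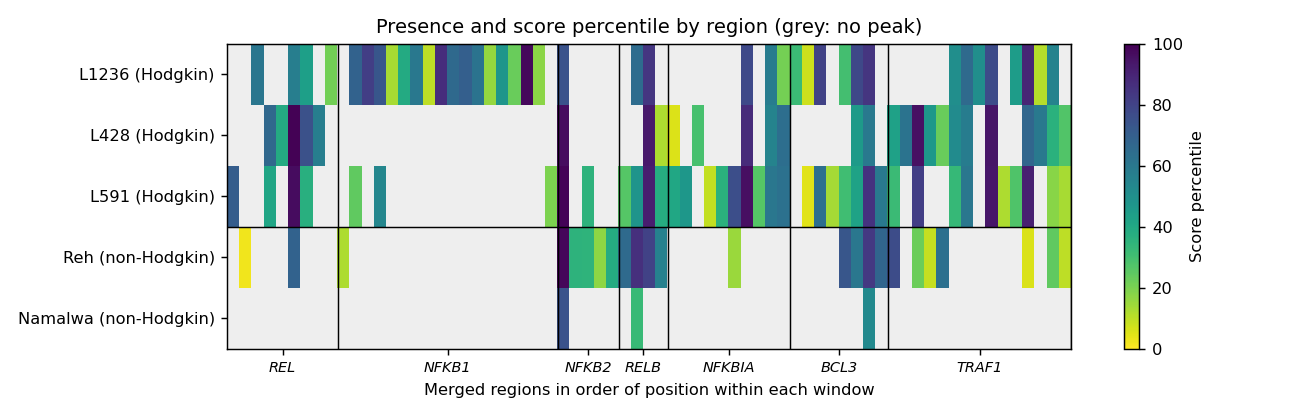
The 69 merged regions in order of position (columns, grouped by window) in each line (rows), coloured by the score percentile of the line's highest peak in the region and grey where the line had no peak. NFKB1 is filled almost wholly by L1236, and Namalwa has a peak in 3 columns.

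The REL window (chromosome 2, 60920000 to 61050000) lies around the gene of c-Rel, a subunit prominent in B cells. It held 5 peaks in L1236, 6 in L428 and 4 in L591, against 2 in Reh and 0 in Namalwa. The Hodgkin lines averaged 0.201 ± 0.0539 peaks per 1000 (SD, n = 3) and the non-Hodgkin lines 0.0358, a difference of 0.165 (two-sided exact permutation p = 0.1). The difference was 0.155 at 6 U/ml and 0.150 at 12 U/ml. The 0 in Namalwa allows up to 0.521 per 1000 (3 counts), so a difference from Namalwa was not detectable at this list length. The same limit holds for its 0 in NFKB1, NFKBIA and TRAF1, where it lies above every Hodgkin value except the 0.624 of L1236 in NFKB1 and the 0.601 of L428 in TRAF1. In lists of equal length the REL window held 0 peaks in L1236, 1 in L428 and 1 in L591, against 0 in Reh and 0 in Namalwa. Without Namalwa the difference was 0.129. Of all 130 kb stretches with a peak in any line, 11.1% held at least as many L1236 peaks as this window, 6.06% as many L428 peaks and 17.9% as many L591 peaks, against 39.6% for Reh.

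The main site of the REL window was a region at 60961311 to 60963260, found in 4 lines. L428 had its peak at percentile 99.3 of its list by score (the authors' peak area) and L591 at 96.6, while L1236 was at 57.2 and Reh at 68.7. By the highest peak of each line, the site was thus among the strongest of 2 Hodgkin lines and near the middle of the list in L1236. Its fine structure also differed. L591 had a single peak of 1790 bp and L428 peaks of 1170 and 400 bp. L1236 had narrow peaks at 60961511 to 60961940 and 60962651 to 60962890, and the Reh peak at 60962041 to 60962570 lay between them. The L1236 percentile is that of the first narrow peak alone, so it is not a rank of the whole site. No base of the region was covered in all 4 lines, so L1236 and Reh are joined there by the wide peaks of L428 and L591. The Hodgkin-only region of this window lay next to it at 60963561 to 60964110, with L1236 at percentile 43.4, L428 at 75.2 and L591 at 36.9, with 310 bases common to the 3 lines. The highest L1236 peak lay elsewhere, at 60928591 to 60929000 (percentile 60.7), and no other line had a peak there.

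The NFKB1 window (chromosome 4, 103600000 to 103800000), around the gene of a precursor subunit, was marked by L1236. That line had 16 peaks, while L591 had 3 and L428 none, against 1 in Reh and 0 in Namalwa. L428 thus had no listed site here, like Namalwa, and the limit that a count of 0 allows is 0.129 per 1000 in L428. The Hodgkin mean was 0.246 ± 0.332 per 1000 (SD, n = 3) and the non-Hodgkin mean 0.0179, a difference of 0.228 that was smaller than the Hodgkin SD (exact permutation p = 0.7). Without L1236 the difference was 0.0385. At 6 U/ml the difference was 0.276, with L1236 and L428 at opposite ends, and at 12 U/ml it was 0.113.

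Of the 18 regions in NFKB1, 14 had a peak in L1236 alone, and such regions made up 19.8% of the genome's merged regions. They spread over the stretch from 103700521 to 103765950, at percentiles from 9.87 to 97.8. The strongest spanned 1440 bp at 103759871 to 103761310, the widest L1236 peak in the 7 windows. Another 2 regions were common to L1236 and L591, at 103641911 to 103642550 and 103704381 to 103704940. The second was the highest L591 site of the window at percentile 54.1, with L1236 at 73.1. The only Reh peak, at percentile 12.4, lay at 103641411 to 103641590, close to the first of these without touching it. At least as many peaks as in this window were found in 1.93% of 200 kb stretches for L1236 and 37.1% for L591, against 65.2% for Reh.

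The NFKB2 window (chromosome 10, 104130000 to 104170000) lies around the gene of the precursor subunit at the centre of the alternative NF-kB pathway. All 5 lines shared 1 strong site there, at 104143591 to 104145500. Ranked by score, L1236 was at percentile 74.8, L428 at 96.8 and L591 at 99.1, against Reh at 98.1 and Namalwa at 74.7. Width followed a similar order, with 570 bp in L1236, 1180 bp in L428 and 1910 bp in L591, against 1700 bp in Reh and 500 bp in Namalwa. All 5 lines covered a common core of 450 bases at 104143871 to 104144320. It was the highest site of the window in every line, and the order of the percentiles did not separate the groups.

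Beyond this site the NFKB2 window belonged mainly to Reh. L1236 had 1 peak, L428 1 and L591 2, against 6 in Reh and 1 in Namalwa. Hodgkin lines averaged 0.0524 ± 0.0198 per 1000 (SD, n = 3) and non-Hodgkin lines 0.194, a difference of -0.142 (exact permutation p = 0.1), with -0.174 at 6 U/ml and -0.0985 at 12 U/ml. The Namalwa value of 0.174 per 1000 is the 1 shared peak. The other 5 Reh peaks lay between percentiles 16.9 and 38.6, and 3 of the window's 5 regions had a Reh peak alone, a class of 21.5% of the genome's merged regions. The 6 Reh peaks were matched or passed in 3.02% of 40 kb stretches, whereas the counts of the other lines were matched in 50.4% for L1236, 55.7% for L428, 25.1% for L591 and 17% for Namalwa. With lists of equal length (the 5760 highest-scoring peaks of each line) every peak but the shared one dropped out, and that one remained in L428, L591, Reh and Namalwa and was lost in L1236.

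The RELB window (chromosome 19, 50180000 to 50240000), around the gene of the subunit that pairs with the product of NFKB2, had no region of a single line. All 4 of its regions had a peak in L591 and in Reh, 2 had one in L1236, 2 in L428 and 1 in Namalwa. The strongest Hodgkin site was at 50211391 to 50212430, with L1236 at percentile 84.3, L428 at 93.3 and L591 at 92.1, against 80.1 in Reh, with no Namalwa peak. Reh covered it with separate peaks of 520 and 370 bp. The highest Reh site was instead at 50196711 to 50197360, at percentile 64.6 in L1236 and 48.4 in L591, against 86.1 in Reh and 32.6 in Namalwa, with no L428 peak.

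By count the RELB window was close between the groups. It held 2 peaks in L1236, 2 in L428 and 4 in L591, against 5 in Reh and 1 in Namalwa. The Hodgkin mean was 0.105 ± 0.0397 per 1000 (SD, n = 3) and the non-Hodgkin mean 0.176, a difference of -0.0716 (exact permutation p = 0.2), with -0.0971 at 6 U/ml and -0.0233 at 12 U/ml. L591 at 0.150 per 1000 lay next to the 0.174 of Namalwa, which is 1 peak, so this separation rests on that peak. Stretches of 60 kb reached the window's count in 25.7% of cases for L1236 and for L428 and in 7.89% for L591, against 6.68% for Reh and 19.2% for Namalwa. In the upper 50% of each list by score the order no longer separated the groups, with 2 peaks in L1236, 1 in L428 and 1 in L591, against 4 in Reh and 0 in Namalwa.

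**Figure D3:**
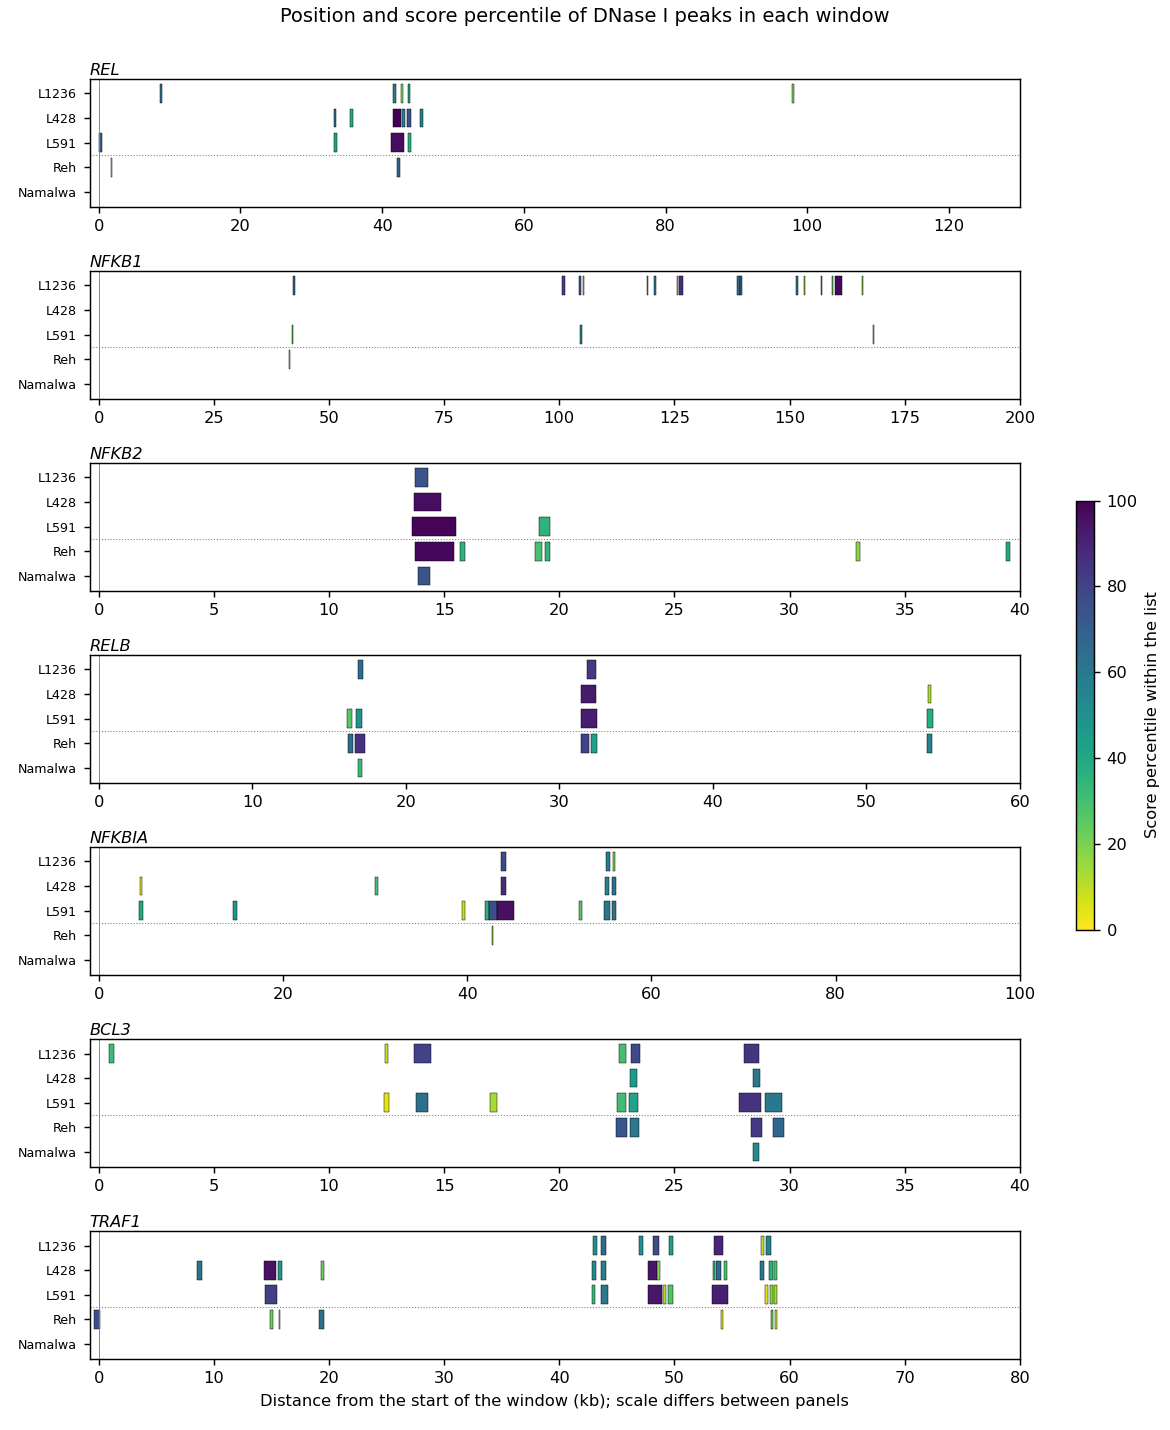
Position of each peak in the 7 windows, as distance in kb from the start of the window, with 1 row for each line (Hodgkin above the dotted line, non-Hodgkin below) and colour for the score percentile within the list. The strong NFKB2 site is seen in all 5 rows, and the main NFKBIA site in the 3 Hodgkin rows.

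The NFKBIA window (chromosome 14, 34900000 to 35000000), around the gene of the inhibitor, held most of its accessible sites in the Hodgkin lines. It had 3 peaks in L1236, 5 in L428 and 9 in L591, against 1 in Reh and 0 in Namalwa. Hodgkin lines averaged 0.223 ± 0.111 per 1000 (SD, n = 3) and non-Hodgkin lines 0.0179, a difference of 0.205 (exact permutation p = 0.2). The difference was 0.130 at 6 U/ml and 0.338 at 12 U/ml. Without Namalwa it was 0.187. Stretches of 100 kb held as many peaks in 19.4% of cases for L1236, 6.8% for L428 and 1.48% for L591, against 59.7% for Reh. Of the 10 regions, 9 had a Hodgkin peak and no non-Hodgkin peak, a class of 55.9% of the genome's merged regions. Of these 9, 4 had a peak in L591 alone and 1 in L428 alone, while 3 had a peak in all 3 Hodgkin lines.

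All 3 L1236 peaks of the NFKBIA window lay in Hodgkin-only regions. The strongest was at 34943281 to 34945030, with L1236 at percentile 77.8, L428 at 87.6 and L591 at 96.1, and 490 bases at 34943711 to 34944200 were common to the 3 lines. It was the highest site of the window in each Hodgkin line. A pair of Hodgkin-only regions followed, at 34954891 to 34955500 and 34955741 to 34956150. At the first, L1236 was at percentile 58.1, L428 at 55.2 and L591 at 60.2. At the second, L1236 was at 20.8, L428 at 64.0 and L591 at 62.8. The single Reh peak of the window ranked low, at percentile 14.9, in a region at 34942401 to 34943200 that L591 covered at percentile 76.0. With lists of equal length each Hodgkin line kept 1 peak in this window, and Reh and Namalwa had 0.

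The BCL3 window (chromosome 19, 49920000 to 49960000) had 6 peaks in L1236, 2 in L428 and 7 in L591, against 4 in Reh and 1 in Namalwa. The Hodgkin lines averaged 0.194 ± 0.0950 per 1000 (SD, n = 3) and the non-Hodgkin lines 0.158, a difference of 0.0359 that was smaller than the Hodgkin SD (exact permutation p = 0.7). It was 0.0167 at 6 U/ml and 0.0894 at 12 U/ml, and it turned to -0.135 in the upper 50% of each list, so no direction is given for this gene. Stretches of 40 kb held as many peaks in 2.64% of cases for L1236, 20.8% for L428 and 0.813% for L591, against 7.52% for Reh and 17% for Namalwa. Without L591 the difference was 0.00149, without L1236 0.0160, without Reh 0.0207 and without L428 0.0901.

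The site of BCL3 that all 5 lines shared was at 49947811 to 49948820, with a common core of 260 bases. L1236 was at percentile 84.8 there, L428 at 59.7 and L591 at 85.5, against Reh at 83.2 and Namalwa at 52.7. It was the highest site of the window in each line. The window also split along its length. Up to 49937310, 4 regions had peaks in L1236 or L591 and in no other line, the strongest at 49933701 to 49934410 (percentile 80.4 in L1236 and 63.3 in L591). From 49942471 onward, 4 regions all had a Reh peak.

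The TRAF1 window (chromosome 9, 122680000 to 122760000), around the gene of the adaptor and 80 kb long, held the most peaks of the 7 windows in L428, in L591 and in Reh. By share of bases covered it did not lead in L591 or Reh, with 7.55% in L591, against 2.45% in Reh, where BCL3 had 8.83% in L591 and NFKB2 had 7.08% in Reh. It held 8 peaks in L1236, 14 in L428 and 10 in L591, against 7 in Reh and 0 in Namalwa. Hodgkin lines averaged 0.430 ± 0.152 per 1000 (SD, n = 3) and non-Hodgkin lines 0.125, a difference of 0.304 (exact permutation p = 0.1), with 0.206 at 6 U/ml and 0.376 at 12 U/ml. Without Namalwa the difference was 0.179. Stretches of 80 kb held as many peaks in 2.85% of cases for L1236, 0.247% for L428 and 0.746% for L591, against 4.39% for Reh.

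The highest TRAF1 peak of each line also differed in rank, though a highest rank depends on the number of peaks as well. The highest peak of L1236 was at percentile 89.5, that of L428 at 95.7 and that of L591 at 94.0, against 76.7 for Reh. The highest Reh peak starts before the window edge. An L428 peak and an L591 peak that overlap it end short of the edge, the L591 peak by 10 bp. Neither is a member, but both are counted in the merged region there. Among the 7 Reh peaks, 5 lay below percentile 24.4 or at it.

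The Hodgkin-only regions of TRAF1 formed a cluster. They were at 122722801 to 122723280, 122723581 to 122724220 and 122727681 to 122728930. At the last, L1236 was at percentile 77.0, L428 at 94.4 and L591 at 94.0, with 490 bases common to the 3 lines. At the first, L1236 was at 50.7, L428 at 51.8 and L591 at 33.1, and at the second, L1236 was at 65.2, L428 at 57.9 and L591 at 60.4. The highest L1236 site lay a little further on, at 122733291 to 122734630, with L1236 at percentile 89.5, L428 at 66.8 and L591 at 91.3, against 5.79 in Reh. Reh thus had a peak at that site, but among the weakest of its list, sharing 50 bases with all 3 Hodgkin lines.

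L1236 differed from the other Hodgkin lines in the first part of the TRAF1 window. Its first peak started at 122722951. L428 had its highest site of the window before that, at 122694371 to 122695450, at percentile 95.7 in L428 and 81.6 in L591, against 22.4 in Reh. At 122699141 to 122699600 the order was the other way, with percentile 23.0 in L428, against 63.2 in Reh, and no peak in L1236 or L591.

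**Figure D4:**
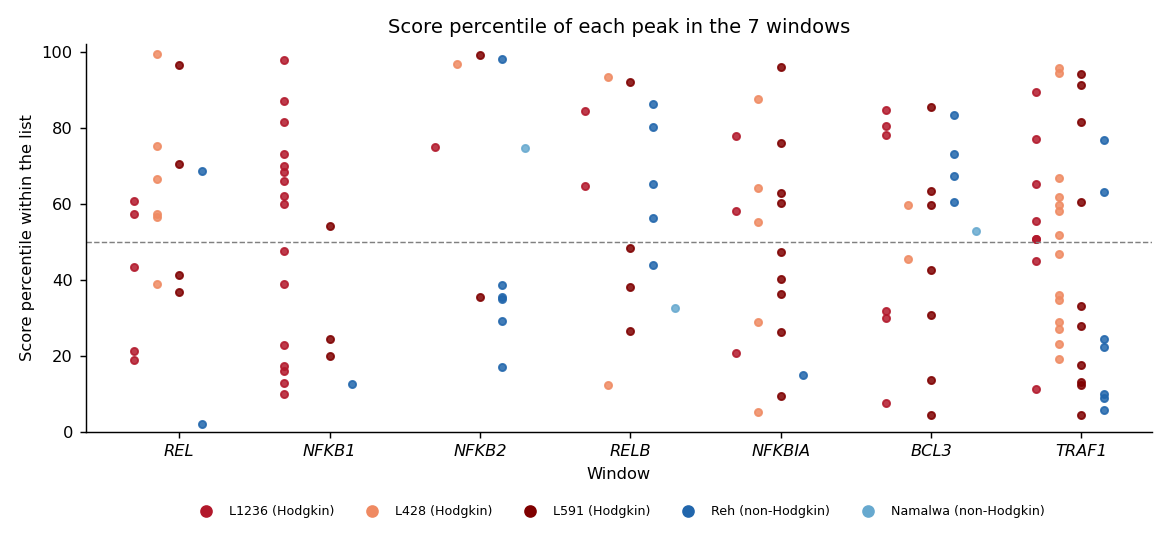
Score percentile of each of the 139 peaks within its own list, by window and line, with the median of a list at the dashed line. In TRAF1 the Hodgkin peaks reach 89.5 to 95.7 and the Reh peaks 76.7, while in NFKB2 the highest peaks of L428, L591 and Reh all lie above 96.

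Over the 7 windows, the peaks of L1236 had a median percentile of 58.1, those of L428 56.9 and those of L591 41.2, against 41.2 in Reh and 52.7 in Namalwa, where the median of any list is 50. Peaks in the upper 10% of a list numbered 1 in L1236, 5 in L428 and 6 in L591, against 1 in Reh and 0 in Namalwa. Sites of this rank were thus listed mainly in L428, with 5 of 30 peaks, and in L591, with 6 of 39, while L1236 had 1 of 41. By definition 10% of any whole list ranks this high, and the departures from that share rest on few peaks. Members were 390 bp wide at the median in L1236, 380 bp in L428 and 420 bp in L591, against 270 bp in Reh and 260 bp in Namalwa, while the whole lists had medians of 310 bp in L1236, 320 bp in L428 and 450 bp in L591, against 320 bp in Reh and 290 bp in Namalwa. Scores have no scale common to the lists, so levels at one site cannot be compared between lines beyond these ranks.

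Overlap between lines was also counted peak by peak, beside the same share of each whole list. An L591 peak overlapped 76.7% of the 30 L428 peaks (67.4% of the L428 list) and 53.7% of the 41 L1236 peaks (44.6% of the L1236 list). Of the 30 L428 peaks, 18 overlapped an L1236 peak and 12 a Reh peak, against 43.5% and 44.3% of the L428 list. A Reh peak overlapped 17.1% of the 41 L1236 peaks, against 31.5% of that list, and NFKB1, with no such overlap, accounts for 16 of the 41. Seen from Reh, 73.1% of its 26 peaks overlapped an L591 peak (44.5% of the Reh list), 53.8% an L428 peak (36.1%) and 30.8% an L1236 peak (29.3%). All 3 Namalwa peaks overlapped a Reh peak, as did 98.4% of the Namalwa list. These shares rest on few peaks and were not tested.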

How the data were processed

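DNase-seq of 5 cell lines was deposited as 1 peak list per line. The submitters' processing notes name Bowtie 1.00 and build hg18. Per the file headers, reads had been extended to 146 bp and binned at 10 bp. How peaks were called, at which threshold and from how many reads is not given in the sources used here, so depth is unknown. The list of L1236 lacks the mark qcTrimmed that the other 4 carry. The score that the authors deposited for each peak is its area, with no stated scaling, and all scores were divisible by 8. It was used only as a percentile within a list (mean rank, 0 to 100). A growth note in the labels spells 1 line differently from its title, which was followed.

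Positions are 1-based hg18. Only chromosomes 1 to 22 and X were used. A peak belonged to a window if it overlapped it by 1 bp or more. Peaks of all lines that overlapped by 1 bp were joined into regions, and a region's class used all its peaks. The percentile of a line in a region is that of its highest peak there, also where it had several. Genome stretches were laid end to end at each window's length, with peaks placed by their centre. Unlike these, windows were placed around genes. Groups were compared by exact two-sided permutation over the 10 splits of the lines. These p-values measure only the spread between lines, and none was computed for the 7 windows together. The members, windows and lists were chosen with earlier results of these data known. Regions named are those of all 5 lines, the Hodgkin-only ones and the highest of each line in each window, with a few others picked after their values were seen. A window may hold parts of neighbouring genes. In RefSeq order (GRCh38.p14) the nearest coding neighbours are PAPOLG and PUS10 for REL, SLC39A8 and MANBA for NFKB1, GBF1 and PSD for NFKB2, CLPTM1 and CLASRP for RELB, PSMA6 and INSM2 for NFKBIA, CEACAM16 and CBLC for BCL3, and PSMD5 and C5 for TRAF1, which PHF19 overlaps. No hg18 sequence or annotation was used, so the planned search for motifs in peaks and the other genes of the pathway were left out.

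The software was Python 3.11.15 with matplotlib 3.10.9, scipy 1.17.1, pandas 2.3.3 and numpy 2.4.6. Joining and classes were tested on simulated lists with planted regions. Alternatives covered the joining rule, list length, score threshold, peak width, window edges, covered bases in place of peaks, and each line left out.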

Additional observations from a re-analysis of the deposited data

How the results depend on the processing

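The direction of the difference between Hodgkin and non-Hodgkin lines was kept in 79 of 80 recalculations over the 7 windows and their total, under shorter lists, peaks of 200 bp, wider windows, covered bases and each line left out. The exception was BCL3, at -0.135 per 1000 in the upper 50% of each list. Many of these recalculations could not have come out otherwise. Where the groups did not overlap, as in the total, leaving out a line cannot reverse the direction. Setting peaks to 200 bp changes a count only at a window edge. With 1 line left out the difference ran from 0.129 to 0.201 in REL, 0.0385 (without L1236) to 0.350 (without L428) in NFKB1, -0.162 to -0.121 in NFKB2 and -0.0944 to -0.0582 in RELB. It ran from 0.148 to 0.259 in NFKBIA, 0.00149 to 0.0901 in BCL3 and 0.179 to 0.430 in TRAF1, and the total from 0.520 to 0.930. With lists of equal length (5760 peaks), Hodgkin-only, non-Hodgkin-only and common regions numbered 1, 1 and 0, and L1236, L428, L591, Reh and Namalwa had 9, 6, 8, 4 and 3 peaks in the windows. There REL, NFKB2 and RELB no longer separated the groups, while NFKBIA and TRAF1 did, with 1 L1236 peak in each. With peaks set to 200 bp, regions of all 5 lines numbered 1, and with windows widened by 50 kb they numbered 4 and non-Hodgkin-only regions 1. Hodgkin-only regions ranged from 7 to 12 with a line left out, with 12 both without L428 and without Reh. Without Namalwa, non-Hodgkin-only regions (0 to 5 over the lines) numbered 5 and regions of all remaining lines (2 to 7) numbered 7, since 1 list less is required. No paired analysis was possible because the labels give no replicate numbers, and the differences within each DNase I dose stand with each window. The length of the Namalwa list limits every count that needs a Namalwa peak or its absence.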

Other observations

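The windows were set against their neighbourhood, 1000 kb on either side. In TRAF1 the window held 32.0% of the L1236 peaks of window and neighbourhood together, 30.4% of those of L428 and 28.6% of those of L591, against 26.9% in Reh. Peaks thus gathered in this window to a like extent in these 4 lines. In NFKB1, L1236 had 41.0% of its local peaks in the window and 23 in the neighbourhood, where L428 had 8, L591 16, Reh 13 and Namalwa 4. In NFKBIA, L1236 had 3 peaks in the window and 12 in the neighbourhood. L428 had 15.6% of its local peaks in the window and L591 28.1%, against 8.33% in Reh, which had 11 peaks in the neighbourhood.

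Some peaks lay close to a window edge. The L591 peak of REL starts 0.021 kb inside the window and the nearest peak outside lies 4.38 kb away, while the last Reh peak of NFKB2 ends 0.41 kb inside and an L591 peak lies 0.391 kb beyond. In BCL3 the first L1236 peak starts 0.441 kb inside and another L1236 peak ends 0.49 kb outside.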
